A study of Bos taurus with 10 samples.

Results

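CDK1, the kinase whose activity drives a cell into M phase, was followed with its B cyclins, the CDC25 phosphatases, the inhibitory kinases WEE1 and PKMYT1 and the CKS subunits in bovine oocytes before and after *in vitro* maturation. The members were chosen by name, as every probe set whose 1 annotated gene symbol, current or former, was one of 10 genes. Of the 9155 genes that the array held under 1 symbol, 7 met this rule, with 1 of the 24016 tested probe sets each for *CDK1* (formerly CDC2), *CCNB1*, *CCNB2*, *CDC25C*, *WEE1*, *CKS1B* and *CKS2*. No probe set carried the symbol of *CDC25A*, *CDC25B* or *PKMYT1* alone, and these 3 genes were not analysed here. The data were 5 pools of immature oocytes, taken at 0 h, and 5 pools of IVM oocytes, taken after 24 h of culture, each on its own Affymetrix bovine array. Oocytes of both groups came from follicles of 3 to 8 mm on ovaries of slaughtered cows, within complete cumulus complexes that were denuded just before freezing. IVM complexes were cultured at 39°C in TCM-199 with 10% fetal calf serum and 10 ng/ml of epidermal growth factor, and no other agent or genotype separated the groups. A value is thus a mean over the many oocytes of a pool, whatever stage each had reached, and in pooled material fewer cells of a type cannot be told apart from less RNA per cell.

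In the fully grown oocyte, meiosis is held at prophase with CDK1 bound to cyclin B but kept inactive, because WEE1-family kinases and PKMYT1 phosphorylate its ATP-binding loop. CDC25 phosphatases remove these phosphates, the germinal vesicle breaks down, and active CDK1 with cyclin B drives the oocyte to metaphase. Much of this control acts on the use of stored mRNA and on protein. The arrays read mRNA, but neither its translation nor protein.

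The labelled cell type was checked with markers, and arrays that stood apart were noted before the members were compared. All 9 oocyte markers on the array varied between arrays, and their mean log2 value per array was 12.37 to 12.86 on immature and 9.60 to 10.96 on IVM arrays, with differences from -4.87 for *GTSF1* to 0.37 for *KPNA7*. At limma's adjusted p under 0.0001, the threshold used here, 3 were lower (*ZP3*, -3.78, *NLRP5*, -4.03, and *GTSF1*) and 0 were higher. *GDF9* had a difference of -4.42 that did not pass. Of 7 cumulus markers, 4 varied (*HAS2*, *PTX3*, *TNFAIP6* and *PTGS2*), with a mean per array of 6.19 to 6.92 on immature and 10.42 to 13.02 on IVM arrays, while *AREG*, *CD44* and *PGR* hardly varied. All 4 had a positive difference, and 1 passed (*TNFAIP6*, 10.86). Of 11 granulosa markers, 8 varied and 0 passed, and their mean per array was 7.06 to 9.91 on immature and 7.41 to 9.08 on IVM arrays. Of 10 markers of other somatic cells, 4 varied, with a mean per array of 6.85 to 8.67 and of 7.51 to 9.78, which pools differences from -2.51 for *VIM* to 3.28 for *SPARC*, neither past the threshold. Poly-A control transcripts, which are added to the RNA before amplification, lay between 6.85 and 7.24 on immature and between 7.73 and 8.23 on IVM arrays. Hybridization controls were lower on immature replicates 1, 2 and 3 (9.38 to 9.73) than on the other arrays (10.75 to 11.22). IVM replicate 4 had the lowest mean correlation with its own group over all probe sets (Pearson's r = 0.933). The part of each of these differences in the results below was not tested.

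*CDK1*, the catalytic subunit, had a higher value on every immature array than on any IVM array. Its log2 values on immature replicates 1 to 5 were 11.54, 11.48, 11.26, 11.18 and 11.38, and on IVM replicates 1 to 5 they were 7.59, 6.81, 7.25, 5.78 and 7.31. The groups were more than 3 log2 units apart at their nearest arrays, and IVM replicate 4 was the lowest array. The mean fell by 4.42 on the log2 scale (95% confidence interval -5.16 to -3.68, adjusted p = 1.97e-05 from limma), which is 21.4-fold, and it was among the 82 probe sets of 24016 with a difference this far below 0. This call depended on which array was left out. Without any 1 of the 5 immature arrays, or without IVM replicate 2, limma's adjusted p was between 1.16e-04 and 1.45e-04. Those values are over the threshold of 0.0001 used here. Without IVM replicate 1, 3, 4 or 5 the call was kept (adjusted p from 2.52e-06 to 9.57e-05 from limma). Replicate number was also fitted as a block, called the day block here because the paper's replicates are days of ovary collection. That equal numbers share a day was assumed. Over all probe sets the adjusted p of *CDK1* from limma was then 0.00194 at the same difference. In that fit 0 of the 24016 probe sets passed, so a call lost there says nothing of a single gene.

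The B cyclins, which activate CDK1 and set where it acts, differed from each other in their change. *CCNB2*, cyclin B2, had log2 values of 12.50, 12.43, 12.29, 12.07 and 12.25 on immature replicates 1 to 5 and of 11.20, 10.85, 11.02, 9.92 and 11.28 on IVM replicates 1 to 5. All 5 IVM arrays lay below all 5 immature arrays, and the difference was -1.46 (standard error 0.25, 95% confidence interval -2.04 to -0.87), but it did not pass over all probe sets (adjusted p = 0.00281 from limma). *CCNB1*, cyclin B1, had log2 values of 12.58, 12.47, 12.44, 12.21 and 12.44 on immature replicates 1 to 5 and of 12.88, 12.67, 12.88, 12.22 and 12.96 on IVM replicates 1 to 5. The groups overlapped only through IVM replicate 4, which lay near immature replicate 4, and the difference of 0.29 did not pass (95% confidence interval -0.04 to 0.63, adjusted p = 0.187 from limma). Without IVM replicate 4 it was 0.42 (adjusted p = 0.00871), still short of the threshold.

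The change of one B cyclin relative to the other was tested within each array, where a shift common to the whole array cancels. *CCNB2* minus *CCNB1* had a mean log2 value of -0.12 (SD 0.06, 5 arrays) before maturation and of -1.87 (SD 0.25, 5 arrays) after it. Immature arrays lay between -0.19 and -0.04 and IVM arrays between -2.30 and -1.68, with no overlap. This made a change of -1.75 with a standard error of 0.12. By a two-sided exact permutation test over arrays it had p = 0.00794, as small as groups of 5 can give, and leaving out any 1 array gave -1.80 to -1.64. The groups also did not overlap for 56.3% of the 9460 probe sets that varied, and how often ratios of other genes separate was not tested. Only the change of this ratio can be read, not its level, since probe sets differ in how they respond. With pairs formed by replicate number, the exact test of the 5 paired changes had p = 0.0625, the smallest that 5 pairs allow. Of the 4 pairs of related genes set for this test, this was the only one in which both genes were on the array and varied, so no adjustment was made.

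**Figure D1:**
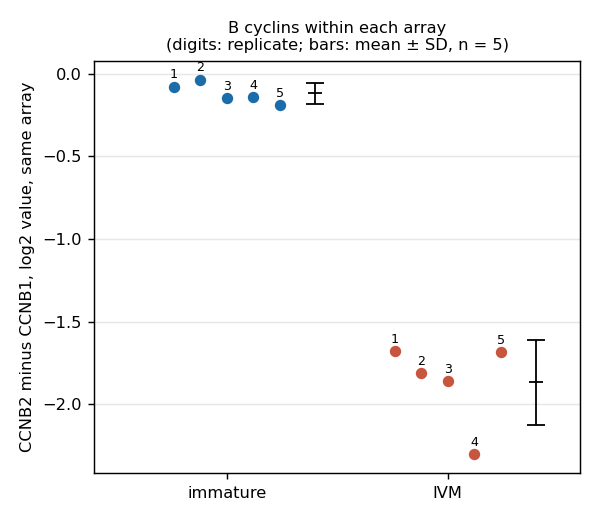
Difference in log2 value between *CCNB2* and *CCNB1* on the same array, for the 5 immature and 5 IVM arrays, with the replicate number at each point and the mean ± SD beside each group. The immature arrays sit between -0.19 and -0.04 and the IVM arrays between -2.30 and -1.68, with IVM replicate 4 the lowest.

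*CDC25C*, a phosphatase that removes the inhibitory phosphates of CDK1, showed the largest difference of the 7 probe sets. Its log2 values were 12.74, 13.00, 12.70, 12.53 and 12.70 on immature replicates 1 to 5 and 7.64, 7.16, 6.59, 6.38 and 7.19 on IVM replicates 1 to 5. The immature arrays were close to each other, and every IVM array lay far below the lowest of them. The mean fell by 5.74 (95% confidence interval -6.29 to -5.20, adjusted p = 8.23e-07 from limma), which is 53.6-fold, and it was among the 9 probe sets of 24016 with a difference this far below 0. The call was kept without any 1 of the 10 arrays (adjusted p from 1.73e-06 to 9.81e-06). In the block fit over all probe sets, which passed none, its adjusted p was 6.68e-04. The IVM means of *CDC25C* (6.99) and *CDK1* (6.95) lay below the median of every array (7.04 to 7.10), and how far they stood above background was not tested, so the fold changes are those of the deposited values.

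The inhibitory kinase *WEE1*, which opposes CDC25C, gave no readable difference. Its log2 value was 6.73 on each of the 10 arrays, with a span of 2e-09 between the highest and the lowest. FARMS, the method that summarised the probes, returns nearly one value on every array when the probes of a set share no signal, so a constant value does not show that the transcript stayed the same. Its adjusted p of 0.0280 from limma belongs to a difference of -1e-09 and was not counted.

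The CKS subunits, small proteins that bind CDK1 and help it find substrates that are already phosphorylated, split in the same way between a readable and a constant probe set. *CKS2* had log2 values of 11.80, 11.81, 11.65, 11.79 and 11.86 on immature replicates 1 to 5 and of 12.49, 12.49, 12.77, 11.80 and 12.90 on IVM replicates 1 to 5. Of the IVM arrays, 4 lay above all immature arrays, and replicate 4 lay among them. The difference of 0.71 (standard error 0.19, 95% confidence interval 0.26 to 1.15) had adjusted p = 0.0241 from limma, and without IVM replicate 4 it was 0.88 (adjusted p = 4.21e-04). Without any 1 of immature replicates 1, 3 and 4 or IVM replicates 1, 2 and 3 its adjusted p was over 0.05, up to 0.0585, and with the day block it was 0.0709. *CKS1B* was at 13.59 on each of the 10 arrays, with a span of 6e-08, and its change could not be read. The positive differences of *CKS2* and *CCNB1* turned to -0.23 and -0.64 when arrays were centred on the poly-A controls, a scaling that moves the median of all probe sets by -0.94.

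**Figure D2:**
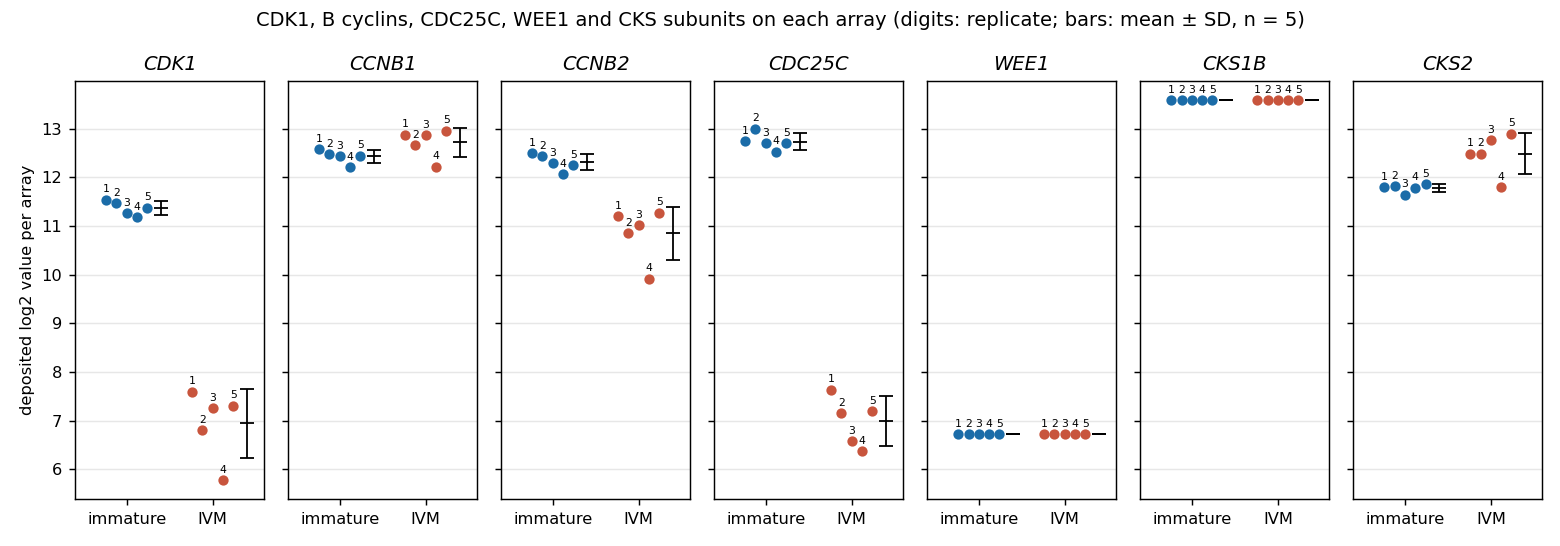
Deposited log2 value of each of the 7 probe sets on each array, with the replicate number at each point and the mean ± SD beside each group, for 5 immature and 5 IVM arrays. *CDK1* and *CDC25C* lie between 11.18 and 13.00 on immature arrays and between 5.78 and 7.64 on IVM arrays, *WEE1* and *CKS1B* are flat, and heights cannot be compared between panels.

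With limma's adjusted p held under 0.0001, 2 of the 7 probe sets were lower in IVM oocytes and 0 were higher, where the shares over all 24016 probe sets were 4.81% and 0.974%. With the limit at 0.05 and only varying probe sets counted, 3 were lower (*CDK1*, *CCNB2* and *CDC25C*) and 1 was higher (*CKS2*), where 12.5% of all probe sets were lower and 13.4% higher. Of the 7 members 5 varied, against 9460 of the 24016 probe sets, so shares of varying genes are the closer measure. Of the 5121 varying genes, each by its probe set with the highest mean, 15.7% were lower and 2.32% higher at 0.0001. At 0.05 these shares were 38.0% and 29.8%. The arrays of the groups did not overlap for 3 of the 5 members that varied, and for 56.3% of the 9460 probe sets that varied, so an absence of overlap was common on these arrays. When limma was run on the varying probe sets alone, the same 2 genes were past the threshold, both without the day block (*CDK1*, adjusted p = 6.46e-07, and *CDC25C*, 1.45e-08) and with it (2.48e-05 and 5.00e-06). In that fit 17.8% of probe sets were lower and 7.24% higher without the block, and 9.83% and 1.82% with it. When immature replicates 1, 2 and 3 were left out of it as well, *CDC25C* was past the threshold (4.36e-05) and *CDK1* was not (4.27e-04), where 3.97% of probe sets were lower and 0.0423% higher.

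The lowest IVM array was shared by the 5 members that varied. IVM replicate 4 was the lowest IVM array for all 5, and it was the lowest for 37.4% of all varying probe sets. Immature replicate 4 was the lowest immature array for *CDK1*, *CCNB1*, *CCNB2* and *CDC25C*, and for 30.4% of all varying probe sets, while for *CKS2* it was replicate 3. Between arrays of equal number, *CCNB1* differed by 0.20 to 0.52 for replicates 1, 2, 3 and 5 and by 0.01 for replicate 4, and *CKS2* by 0.68 to 1.12 and by 0.01. For *CDK1* the difference was -5.40 for replicate 4 and between -4.67 and -3.95 for the other 4, and for *CCNB2* it was -2.15 and between -1.58 and -0.98. *CDC25C* was at -6.15 for replicate 4 and at -6.11 for replicate 3. In each of the 5 numbers, *CDK1*, *CCNB2* and *CDC25C* were lower and *CCNB1* and *CKS2* higher in the IVM pool.

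Genes whose profile over the 10 arrays came nearest to that of a member were found by the root mean square distance between log2 values, each centred on its mean over the immature arrays. For *CDK1* they were *MCM3*, a subunit of the replicative helicase (distance 0.32, difference -4.05), *PRPF4*, a splicing factor (0.33, -4.24), and *HEXIM2*, an inhibitor of the elongation factor P-TEFb (0.33, -4.84). For *CDC25C* they were *THOP1* (distance 0.29), *DPCD* (0.36) and *CBR3* (0.37), with differences between -5.71 and -5.57. For *CCNB1* they were *ARMC1* (distance 0.07), *TFB2M*, a mitochondrial transcription factor (0.09), and *DLK2* (0.09), with differences between 0.30 and 0.35 that did not pass. The median distance over varying probe sets with 1 symbol was 3.18 for *CDK1*, 4.10 for *CDC25C* and 0.71 for *CCNB1*. These are descriptions over 10 arrays.

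Other regulators of CDK1 were taken from a list of 52 genes, of which 36 were on the array with 1 symbol and 30 varied. Of the 30, limma placed 3 lower and 2 higher past the threshold of 0.0001 and left 25 short of it, where the shares of all 5121 varying genes were 15.7% and 2.32%. The median difference of the 30 was 0.49, against 0.00 over the 5121 genes. With the limit at 0.05 the counts were 10 and 13, where the shares of all varying genes were 38.0% and 29.8%. Each gene was counted by its probe set with the highest mean.

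The CDK-activating kinase, which phosphorylates the activation loop of CDK1, had 2 of its 3 subunits among the 3 genes that were lower. *CCNH*, cyclin H, was between 10.07 and 10.92 on immature and between 6.31 and 7.23 on IVM arrays, and fell by 3.51 (standard error 0.21, adjusted p = 6.47e-06 from limma). *MNAT1*, the assembly factor, was between 11.71 and 12.21 and between 8.44 and 9.29, and fell by 3.04 (standard error 0.18, adjusted p = 5.34e-06 from limma). A second probe set of *MNAT1* was also lower, by -1.87 (adjusted p = 3.46e-05 from limma). *CDK7*, the catalytic subunit, had a difference of -0.75 that did not pass (adjusted p = 0.00665), with no overlap of the arrays, and another probe set of it was at 0.02 with overlapping arrays. In the block fit over all probe sets, which passed none, *CCNH* and *MNAT1* had adjusted p = 7.52e-04 and 9.23e-04, and in that over the varying probe sets they passed (7.66e-06 and 1.20e-05).

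*PLK1*, the polo kinase that activates CDC25C and marks WEE1 for destruction, was the third gene that was lower. It lay between 11.19 and 12.29 on immature and between 7.41 and 8.67 on IVM arrays, and fell by 3.51 (standard error 0.32, adjusted p = 6.94e-05 from limma). Leaving out any 1 array other than IVM replicate 4 ended this call, with adjusted p up to 4.02e-04. With the day block it was 0.00345 over all probe sets, where none passed, and it passed over the varying ones (6.20e-05). *BORA*, a partner of the polo kinase, was at 0.67 and *TPX2*, an activator of Aurora A, at 0.76, and neither passed. *AURKA*, the Aurora A kinase, had a difference of -0.63 on its highest probe set and 0.54 on another, and neither passed.

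Among the 14-3-3 proteins, which hold phosphorylated CDC25 in the cytoplasm, *YWHAB* was higher in IVM oocytes. It lay between 10.04 and 10.16 on immature and between 11.94 and 12.35 on IVM arrays, and rose by 2.12 (standard error 0.08, adjusted p = 5.93e-07 from limma), a call kept without any 1 array. With the day block it was 8.02e-04 over all probe sets, where none passed, and it passed over the varying ones (1.69e-05). *YWHAE* had a difference of 2.31 and *YWHAH* one of -1.41, and neither passed (adjusted p = 2.95e-04 and 0.00166). Of the 7 genes of this list, 5 varied, 1 was higher and none was lower. *PPP1CC*, a catalytic subunit of protein phosphatase 1, was the other gene that was higher, by 0.71 (standard error 0.07, adjusted p = 9.78e-05 from limma). Its call ended without any 1 of the 10 arrays (adjusted p from 1.18e-04 to 5.54e-04) and with the day block over the varying probe sets (9.77e-04; 0.00698 over all), and its difference turned to -0.23 with arrays centred on the poly-A controls.

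The subunits of protein kinase A and of protein phosphatase 2A, which keep CDK1 inactive in the immature oocyte or reverse its phosphorylations, gave no call on the probe sets that stood for them. Of the 4 protein kinase A genes that varied, all had a positive difference on these probe sets, from 0.36 for *PRKAR2A* to 1.29 for *PRKAR1A*, a regulatory subunit (adjusted p = 6.34e-04). The arrays overlapped for *PRKAR2B* (0.56), and another probe set of *PRKACB* was at -0.09 with overlapping arrays. Centring on the poly-A controls shifts each difference by -0.94, more than the differences of *PRKAR2A* and *PRKAR2B*. Of the 4 phosphatase 2A genes that varied, *PPP2R1A*, a scaffold subunit, was at 1.83 and *PPP2R2B*, a regulatory subunit, at -2.00, with no overlap of the arrays for either (adjusted p = 0.00267 and 0.00141). *ARPP19*, an inhibitor of this phosphatase, stood in the count by a constant probe set, while another was higher by 1.53 (adjusted p = 3.63e-05 from limma). *XPO1*, which exports proteins from the nucleus, was at -1.29 and *CHEK1*, a kinase that acts on CDC25, at 0.96, and neither passed (adjusted p = 3.50e-04 and 0.00110). *CCNA2*, cyclin A2, was at 0.41 with overlapping arrays (adjusted p = 0.209).

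**Figure D3:**
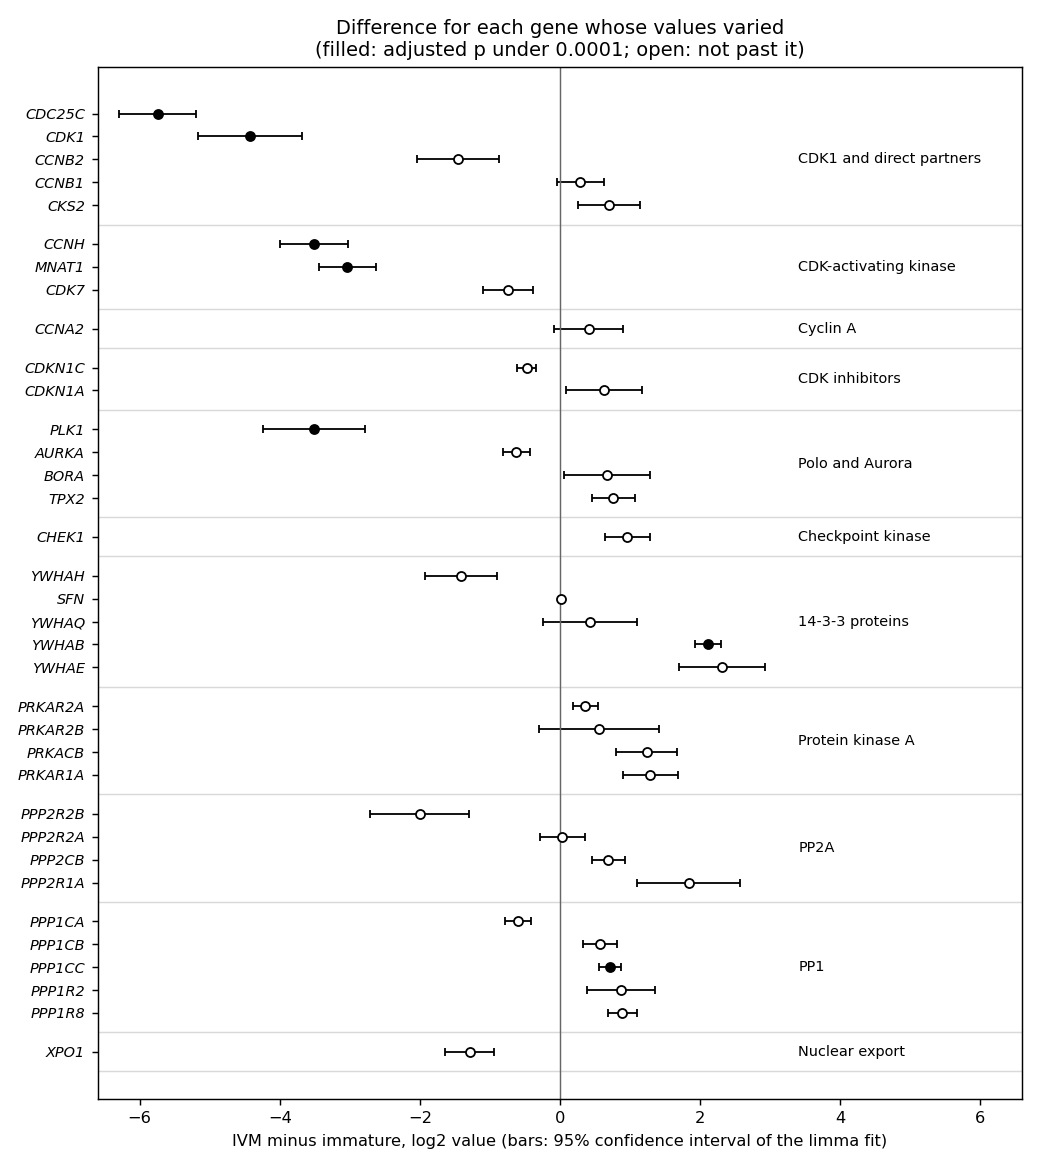
Difference in log2 value, IVM minus immature, with its 95% confidence interval from limma, for the 5 members and the 30 other regulators whose values varied, 5 arrays per group, with filled points at an adjusted p under 0.0001. Filled points on the left are *CDC25C*, *CDK1*, *PLK1*, *CCNH* and *MNAT1*, between -5.74 and -3.04, and those on the right are *PPP1CC* and *YWHAB*, at 0.71 and 2.12.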

How the data were processed

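Each pool gave 100 ng of RNA to 2 rounds of 3′ amplification, which is primed at the poly(A) tail, so values read polyadenylated transcripts. Array images were read in GCOS by the authors, who normalized by quantiles and condensed the probes of a set by FARMS into the deposited log2 values. Versions are not given in the sources used here. No genome build is named, so no coordinates are given, and the number of columns not used is 0.

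Of 24128 probe sets, 112 controls were set apart. Symbols came from the platform annotation, updated through gene identifiers for 13263 probe sets. The fit also held 86 probe sets of several genes and 10638 without a symbol here, which are not named. IVM was compared with immature by lmFit and eBayes of limma 3.58.1 (R 4.3.3), with Benjamini-Hochberg adjustment over all 24016 probe sets. The limit of 0.0001 follows the paper's methods. Of these probe sets 14556 span less than 0.01, and the degrees of freedom of the prior were 0.103. The threshold is strict with 5 arrays per group, whose number limits precision. In simulated data the fit made no false call but recovered only the minority of the known changes. Fewer changes were set there than were called in the real data, so the share recovered does not give the sensitivity here. A gene short of the limit is not shown to be unchanged. Python 3.11.15, numpy 2.4.6, pandas 2.3.3 and matplotlib 3.10.9 made the other tables and figures.

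Named are all members, regulators past the threshold, the 3 others with the largest rise and fall, and the 3 nearest profiles of *CDK1*, *CCNB1* and *CDC25C*. Values of further regulators were named after they had been seen. Members, lists and alternatives were chosen with earlier results of these data known. In the paper, replicates are days of ovary collection. Pairing by replicate number assumes that equal numbers share a day, which the labels do not state. Deviations of same-numbered arrays from their group means correlated over probe sets at r = 0.149, -0.343, 0.0818, 0.676 and 0.352 in order of replicate, and immature replicates 1, 2 and 3 correlated better with an IVM array of another number (0.244, 0.626 and 0.355). Of the 5 numbers, 4 and 5 alone matched their own best.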

Additional observations from a re-analysis of the deposited data

Results flagged for a closer look

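In 34 groups of 5 arrays, formed by the genes and the ratio listed above, 2 had an array far from the others, and chance gives such a gap in about 1 of 20 groups. For *CCNB2* minus *CCNB1*, IVM replicate 4 was at -2.30, with a gap to the nearest array of 0.711 of the range of the IVM arrays. For *PPP2R2B*, IVM replicate 1 was at 5.97, with a gap of 0.761 of the range of the IVM arrays. The cause of either value was not tested.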

How the results depend on the processing

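Lower members numbered 2 with varying probe sets only, with and without the day block, with arrays centred on the median and with trend and robust in eBayes. They numbered 3 with arrays centred on the poly-A controls, *CCNB2* being the third, 0 with the replicate block over all probe sets, where 0 of 24016 probe sets passed, 0 without immature replicates 1, 2 and 3, where 4 passed, and 1 without these on varying probe sets only, a setting chosen after seeing the data. Leaving out 1 array gave 1 to 2 lower members, and at an adjusted p under 0.05 there was 1 higher member. For the other regulators, with 3 lower and 2 higher, the replicate block, in which nothing passed, gave 0 and 0, and the poly-A scaling gave 12 lower. Leaving out immature replicates 1, 2 and 3 gave 0 and 0, and 0 and 1 on varying probe sets. Counts from the fits in which 0 or 4 probe sets passed say nothing of these genes. The threshold of 0.05 gave 10 lower and 13 higher. Varying probe sets gave 5 higher, these with the block 1, and centring on their median 4. Leaving out 1 array gave 2 to 4 lower and 1 to 2 higher. Centring on the poly-A controls turned *CCNB1* to -0.64, *CKS2* to -0.23 and *PPP1CC* to -0.23, and over all probe sets it gave 18661 lower and 165 higher calls, against 1155 and 234 as deposited and 1452 and 763 with the median centring. The *CCNB2* minus *CCNB1* change of -1.75 was past 0.05 in every alternative except the replicate block (p = 0.0625, exact test), which cannot go lower. *CCNB2* alone passed 0.0001 only when centred on the poly-A controls (-2.39, adjusted p = 4.74e-06, limma). The cause of a change between settings was not tested.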
